A study of Homo sapiens with 16 samples.

Results

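The HOX genes studied here are the 39 protein-coding genes of the HOXA, HOXB, HOXC and HOXD clusters, chosen by symbol (HOX, a cluster letter and a paralog number) among 60649 genes counted by RNA sequencing in a human mesenchymal stem cell (MSC) line. Of the 39 genes, 31 had enough reads to be tested among 19103 genes in all. The other 8, HOXA2, HOXA4, HOXA6, HOXA7, HOXB1, HOXC12, HOXC13 and HOXD12, had between 5 and 116 reads each summed over 16 libraries and were not tested. HOX genes encode homeodomain transcription factors that give cells along the body axis their positional identity. Genes within a cluster are ordered so that those at the 3′ end mark anterior regions and those at the 5′ end posterior and distal ones, and genes that share a number in different clusters are paralogs. Adult fibroblasts and MSCs keep a HOX pattern of the body site they came from, held by Polycomb repressors and Trithorax activators, and in the embryo the ligand GDF11 acts on HOX genes at the step from trunk to tail.

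The cells were ASC52telo, a single adipose-derived MSC line immortalised with telomerase, grown in α-MEM with 10% FBS. Senescent cultures (MmC+) had received mitomycin C, a DNA crosslinking agent, at 1.5 µg/mL for 18 h, and young cultures (MmC-) had not. Recombinant GDF11 at 10 ng/mL was given (GDF11+) or not (GDF11-) over the following 10 days. The untreated group is written MmC-/GDF11-, the group with GDF11 alone MmC-/GDF11+, that with mitomycin C alone MmC+/GDF11-, and that with both MmC+/GDF11+. Each of the 4 groups held 4 libraries, and all 16 libraries carried the label of a single sequencing run. The paper lists batch effects from technical issues among its limitations, without saying which libraries they concern. The comparisons ask how mitomycin C changed HOX expression without and with GDF11, and how GDF11 changed it in young and in senescent cells. A single immortalised line stands for 1 donor, so p-values measure the spread between cultures of that line.

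Library totals ran from 71275337 to 144204979 counts. The MSC markers NT5E, THY1, ENG, CD44, ITGB1, PDGFRA, PDGFRB and LEPR together reached 5564 to 7003 CPM, counts scaled to library size by TMM, in every library, against at most 1.50 for 4 adipocyte markers, 5.54 for 5 blood markers and 2.22 for 4 epithelial markers. ADIPOQ, which defines adipocytes, had no count in MmC-/GDF11-. After mitomycin C without GDF11, summed adipocyte markers went from 0.0828 to 0.260 CPM up to 0.391 to 1.49 CPM (1 of 3 tested rose, 2 with GDF11), and blood markers from 1.72 to 2.85 CPM up to 2.77 to 5.54 CPM (2 of 3 tested rose, 3 with GDF11). Summed endothelial markers were 47.5 to 75.8 CPM in MmC-/GDF11- and 58.8 to 111 CPM in MmC+/GDF11-, mostly TEK, and 3 of 5 rose and 1 fell. Summed smooth muscle and pericyte markers were 56.3 to 89.8 CPM and 25.1 to 34.7 CPM, mostly CSPG4, which was the 1 of 3 tested that fell. The part of these markers in the HOX results was not tested. Replicate 1 stood apart from the other 3 replicates for several HOX genes after mitomycin C, so values without replicate 1 of every group are given for the genes concerned. In bulk RNA, fewer cells that express a gene and less RNA per cell cannot be told apart.

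HOXA lies at chr7:27092993-27200091, HOXB at chr17:48528526-48728750, HOXC at chr12:53938831-54056030 and HOXD at chr2:176092721-176190907 (hg38, GENCODE v44 positions). RefSeq start sites gave a promoter for 20 of the 39 genes, in 27 windows of 250 bases upstream. Of these windows 26 were distinct, since HOXC4 and HOXC5 have the same window. Most windows belong to HOXA, where HOXA3 has several, and to HOXD. HOXB has a window only for HOXB1, and HOXC only the window of HOXC4 and HOXC5. CpG density varied widely among the HOXD genes that fell with mitomycin C. The windows of HOXD3, HOXD4 and HOXD13 are shown for that reason, 5′ to 3′ on the plus strand of GRCh38.p14, with each CpG in capitals. They lie at chr2:176157057-176157306, chr2:176151300-176151549 and chr2:176092471-176092720.
HOXD3: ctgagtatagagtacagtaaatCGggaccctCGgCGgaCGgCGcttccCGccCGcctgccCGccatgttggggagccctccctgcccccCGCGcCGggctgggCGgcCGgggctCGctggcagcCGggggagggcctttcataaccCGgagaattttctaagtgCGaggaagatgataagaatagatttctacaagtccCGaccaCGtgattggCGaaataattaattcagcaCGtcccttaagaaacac
HOXD4: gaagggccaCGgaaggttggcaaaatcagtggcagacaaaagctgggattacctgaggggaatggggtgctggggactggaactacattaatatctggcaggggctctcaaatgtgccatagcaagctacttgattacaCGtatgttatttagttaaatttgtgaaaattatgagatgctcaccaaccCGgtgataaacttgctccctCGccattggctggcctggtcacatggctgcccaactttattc
HOXD13: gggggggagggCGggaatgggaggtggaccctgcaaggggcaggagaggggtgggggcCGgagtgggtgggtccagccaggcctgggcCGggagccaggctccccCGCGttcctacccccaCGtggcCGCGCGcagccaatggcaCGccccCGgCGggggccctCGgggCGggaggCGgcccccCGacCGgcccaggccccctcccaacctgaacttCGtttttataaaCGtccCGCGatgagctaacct
HOXD3 and HOXD13 had 21 CpG each in this window and HOXD4 had 4. HOXD8, which also fell and is not printed, had 28, and HOXD9 had no window. Of the HOXD genes that were not called, HOXD1 had 31 and HOXD10 and HOXD11 had 23 each, and the untested HOXD12 had 16. The median was 19 over the HOX windows and 11 over 35116 windows of all genes. Searched on both strands, the GC box GGGCGG was in 13 of 27 HOX windows (42.6% of all windows) and the TATA sequence TATAAA in 5 of 27 (10.7%). The HOX-PBX sequence TGATNNAT was in 3 of 27 (6.47% of all windows). The SMAD palindrome GTCTAGAC was in none of 27 (0.182%). HOXD4 held no match to these 4 sequences, HOXD3 held 2 GC boxes, and HOXD13 held 2 GC boxes and 2 overlapping TATA matches on opposite strands. These are matches of letters only.

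In untreated MmC-/GDF11- cells, most of the summed HOX level lay in paralog groups 4 to 8 and 9 to 10. On a per-length scale (CPM per kb of exon, mean ± SD, n = 4), HOXC10, a lumbar and hindlimb gene, was highest at 32.6 ± 3.18. HOXC8 followed at 19.8 ± 1.84, HOXB7 at 18.1 ± 3.67, HOXC6 at 12.7 ± 0.876, HOXC9 at 12.2 ± 1.23 and HOXB2 at 10.3 ± 1.57. The ranges of HOXC8 and HOXB7 overlapped, as did those of HOXC6, HOXC9 and HOXB2 as neighbours in the order, whereas HOXC10 was above HOXC8 in every library. The 10 highest genes, which also include HOXC4, HOXA10, HOXB4 and HOXA11, held 80.6% of the summed HOX level. By cluster, HOXC held 53.4% to 57.0% of the sum in single libraries, HOXB 24.5% to 30.4%, HOXA 7.77% to 10.3% and HOXD 6.89% to 9.09%.

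**Figure D1:**
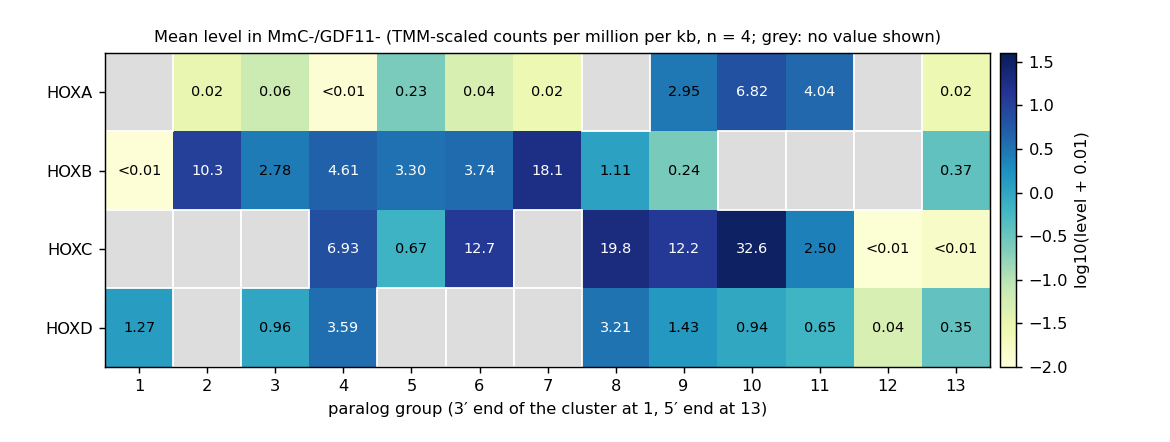
Mean level per length (CPM per kb of exon) of each HOX gene in the 4 MmC-/GDF11- libraries, with clusters as rows and paralog groups 1 to 13 as columns; color is on a log10 scale and grey cells show no value. HOXC10 at 32.6, HOXC8 at 19.8 and HOXB7 at 18.1 were the highest, and HOXA2 to HOXA7 were all at or below 0.229.

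The clusters differed in which positions they used. HOXA was low from HOXA2 to HOXA7 (0.0181), with HOXA5, a lung and upper trunk gene, at 0.229, and was raised only at its 5′ side, where HOXA9 was at 2.95, HOXA10 at 6.82 and HOXA11 at 4.04. HOXB was expressed from HOXB2 through HOXB8 and dropped to 0.238 at HOXB9. HOXC ran from HOXC4 at 6.93 to HOXC11 at 2.50, with HOXC5 lower at 0.672. In HOXD, HOXD4 was highest at 3.59 and HOXD8 next at 3.21, with means above those of HOXA9 and HOXC11. HOXD9 followed at 1.43 and the other HOXD genes were lower. Among the most posterior genes, HOXD13 at 0.345 and HOXB13 at 0.366 were low but above HOXB9. HOXA13 at 0.0176 was near the floor, as were HOXC13 and HOXC12, both below 0.01, all per length. By position, paralog groups 4 to 8 (15 genes) held 49.1% of the sum and groups 9 and 10 (7 genes) held 36%. Groups 1 to 3 (8 genes) held 9.94% and groups 11 to 13 (9 genes) held 5.03%. These shares are not corrected for the unequal numbers of genes.

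Several HOXC genes share exonic bases with other annotated genes. On the same strand, 67.3% of the exonic bases of HOXC5, 17.5% of HOXC4, 16.1% of HOXC6, 7.00% of HOXC10 and 4.38% of HOXC9 also belong to another annotated gene. Leaving out all genes with any same-strand overlap gave a summed level per length of 22.3 for HOXC and 33.4 for HOXB. With all genes these sums were 87.3 and 44.5, so the order turned. Whole genes were left out in this way, among them HOXC10 (32.6 per length) and HOXC9 (12.2), despite their small overlaps. The turned order therefore cannot show how much of the HOXC sum comes from shared bases, which was not tested. Antisense genes cover 60.1% of HOXD1, 27.2% of HOXA11, 24.4% of HOXD8, 16.4% of HOXA10 and 14.1% of HOXD3. How overlapping reads and strand were treated in counting is not given in the sources used here. HOXB9, HOXB13, HOXD4, HOXD9, HOXD13 and HOXA5 overlap no other annotated gene in their exons.

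After mitomycin C, single HOX genes changed in both directions. Without GDF11, 12 of the 31 tested genes changed (38.7%, against 45.3% of all tested genes), by the quasi-likelihood test of edgeR at an adjusted p below 0.05. HOXB2, HOXB5 and HOXB9 rose (3 genes, all genes 22.9%). HOXA10, HOXB13, HOXC4, HOXC9, HOXD3, HOXD4, HOXD8, HOXD9 and HOXD13 fell (9 genes, all genes 22.4%). The share of HOX genes called was thus near that of the transcriptome. Their median log2 fold change was -0.01, as it was -0.01 over all genes. The 4 treated and 4 control libraries did not overlap for 4 higher and 8 lower HOX genes (all genes 19.1% and 18.2%).

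With GDF11 present, 13 of 31 genes changed between MmC-/GDF11+ and MmC+/GDF11+ (41.9%, all genes 46.7%). HOXA5, HOXA11, HOXB2, HOXB5, HOXB9 and HOXC6 rose (6 genes, all genes 23.4%) and HOXA10, HOXC4, HOXC9, HOXD3, HOXD4, HOXD8 and HOXD9 fell (7 genes, all genes 23.3%). No library is shared by these comparisons, though a common estimate of the spread is. They had 10 genes in common, out of 12 and 13, each with the same direction: HOXB2, HOXB5 and HOXB9 higher and the other 7 lower. Libraries did not overlap for 4 higher and 6 lower genes (all genes 20.2% and 21.2%). In neither comparison was a change called for 16 of the 31, among them the highest gene, HOXC10.

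**Figure D2:**
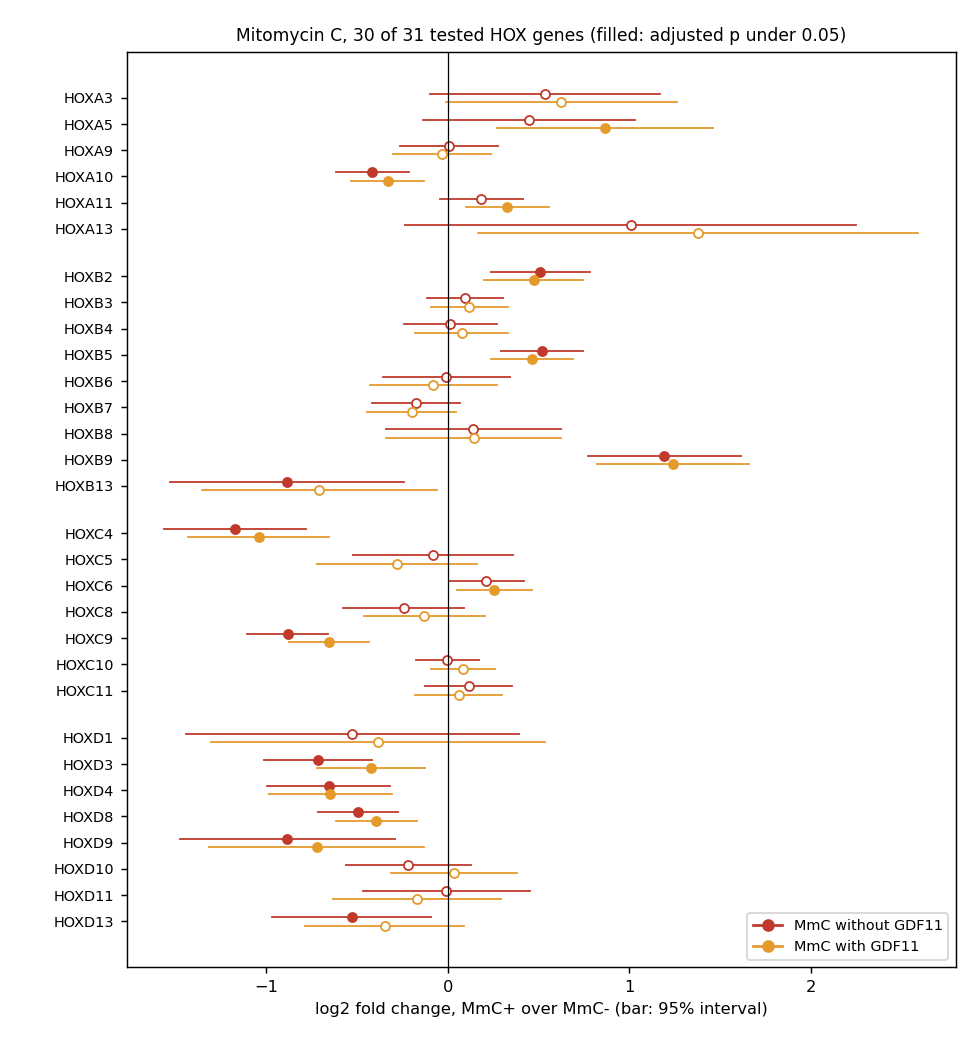
Log2 fold change of MmC+ over MmC- (x axis) for 30 of the 31 tested HOX genes (y axis, by cluster and paralog number), without GDF11 in red and with GDF11 in orange; bars are 95% intervals and filled points passed an adjusted p of 0.05. All 8 HOXD genes lie below 0 without GDF11, and HOXB9 (1.19 and 1.24) and HOXC4 (-1.17 and -1.04) moved farthest in each direction among called genes.

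HOXD was the cluster with the most genes lower. Without GDF11, 5 of its 8 tested genes fell and none rose (all genes 22.4% and 22.9%), and all 8 fold changes were below 0 (median -0.53 on the log2 scale). With GDF11, 4 fell and none rose (all genes 23.3% and 23.4%), and 7 were below 0. The summed HOXD level per length was 12.4 ± 1.36 (SD, n = 4) in MmC-/GDF11- and 8.51 ± 1.76 (n = 4) in MmC+/GDF11-, and its share of the HOX sum was 7.85% and 5.72%. The genes that fell were HOXD3, HOXD4, HOXD8, HOXD9 and HOXD13.

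HOXD3, a gene of neck and hindbrain levels (chr2:176136612-176173102), read 4.08, 2.90, 3.41 and 3.77 CPM in MmC-/GDF11- and 2.48, 2.202, 1.99 and 1.96 CPM in MmC+/GDF11-. With GDF11 it read 3.47, 3.26, 3.35 and 3.33 CPM in young and 2.53, 2.14, 2.32 and 3.02 CPM in senescent cells. Every senescent library was below every young one in both settings. The fall was 1.64-fold without GDF11 (log2 fold change -0.71, SE 0.14, adjusted p = 0.000706) and 1.34-fold with it (log2 fold change -0.42, SE 0.14, adjusted p = 0.0210). The latter call was lost without MmC+/GDF11+ replicate 2 (adjusted p = 0.0701) or replicate 3 (adjusted p = 0.0606).

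HOXD4, expressed from the hindbrain border backwards (chr2:176151550-176153226), read 4.12, 3.91, 4.01 and 4.29 CPM in MmC-/GDF11- and 3.65, 2.27, 2.22 and 2.22 CPM in MmC+/GDF11-. Under GDF11 the values were 4.10, 3.96, 3.87 and 4.08 CPM in young and 3.16, 2.41, 2.39 and 2.26 CPM in senescent cells. The groups did not overlap, but replicate 1 was the highest senescent library in both settings. The gene fell 1.57-fold (log2 fold change -0.66, SE 0.16, adjusted p = 0.00341) and 1.57-fold (log2 fold change -0.65, SE 0.16, adjusted p = 0.00356). Without replicate 1 of every group, the log2 fold changes were -0.86 (adjusted p = 2.15e-05) and -0.75 (adjusted p = 7.22e-05). This is the gene whose promoter window above had 4 CpG, and a link between CpG number and the fall was not tested.

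HOXD8, in the middle of the cluster (chr2:176129694-176132695), read 9.41, 8.78, 7.89 and 7.70 CPM in MmC-/GDF11- and 6.37, 6.51, 5.60 and 5.46 CPM in MmC+/GDF11-. With GDF11 its values were 7.96, 8.49, 7.61 and 7.79 CPM in young and 6.34, 6.54, 6.05 and 5.32 CPM in senescent cells. No senescent library reached a young one. HOXD8 fell 1.41-fold (log2 fold change -0.50, SE 0.10, adjusted p = 0.00117) and 1.31-fold (log2 fold change -0.39, SE 0.10, adjusted p = 0.00580). The antisense gene HOXD-AS2, which covers part of its exons, fell too (log2 fold change -1.09, SE 0.21, adjusted p = 0.000604 without GDF11), and reads of the pair cannot be told apart if strand was not used. HOXD-AS2 is also among the antisense genes that together cover 14.1% of the exonic bases of HOXD3, so the same limit holds for HOXD3.

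HOXD9, a gene of lumbar levels and hindlimb motor neurons (chr2:176122719-176124937), read 3.76, 2.55, 2.37 and 2.05 CPM in MmC-/GDF11- and 1.91, 1.69, 1.17 and 1.02 CPM in MmC+/GDF11-. With GDF11 it read 2.70, 2.99, 2.34 and 1.73 CPM in young and 2.38, 1.31, 1.12 and 1.13 CPM in senescent cells, where replicate 1 overlapped the young range. It fell 1.84-fold without GDF11 (log2 fold change -0.88, SE 0.28, adjusted p = 0.0167) and 1.65-fold with it (log2 fold change -0.72, SE 0.28, adjusted p = 0.0433). The first call was lost, with adjusted p = 0.0609 without MmC-/GDF11- replicate 1, 0.0519 without MmC+/GDF11- replicate 3 and 0.0545 without MmC+/GDF11- replicate 4. The second was lost when any 1 of 8 libraries was left out (adjusted p up to 0.126): MmC-/GDF11- replicates 2 and 3, MmC-/GDF11+ replicates 1 to 3 and MmC+/GDF11+ replicates 2 to 4. Without replicate 1 of every group both held, at -0.84 (adjusted p = 0.00538) and -0.98 (adjusted p = 0.00182).

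HOXD13, the digit and genital gene at the posterior end of the cluster, read 0.819, 0.849, 0.773 and 0.896 CPM in MmC-/GDF11- and 0.648, 0.396, 0.726 and 0.541 CPM in MmC+/GDF11-, without overlap. It fell 1.44-fold (log2 fold change -0.53, SE 0.21, adjusted p = 0.0465), a call close to the threshold that was kept without MmC-/GDF11+ replicate 1, MmC-/GDF11+ replicate 2 or MmC+/GDF11- replicate 3 and lost when any 1 of the other 13 libraries was left out (adjusted p up to 0.137), or without replicate 1 of every group (-0.59, adjusted p = 0.0507). With GDF11 the log2 fold change was -0.35 (adjusted p = 0.181). HOXD1, HOXD10 and HOXD11 were not called, with log2 fold changes of -0.53, -0.22 and -0.01 without GDF11. HOXD1 passed at adjusted p = 0.0145 when replicate number was a block, and at 0.0354 without replicate 1 of every group, as it did with GDF11 (0.0397 and 0.0324). Replicate 1 was the highest HOXD1 library in every group (3.81 CPM in MmC-/GDF11- and 2.84 CPM in MmC+/GDF11-).

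**Figure D3:**
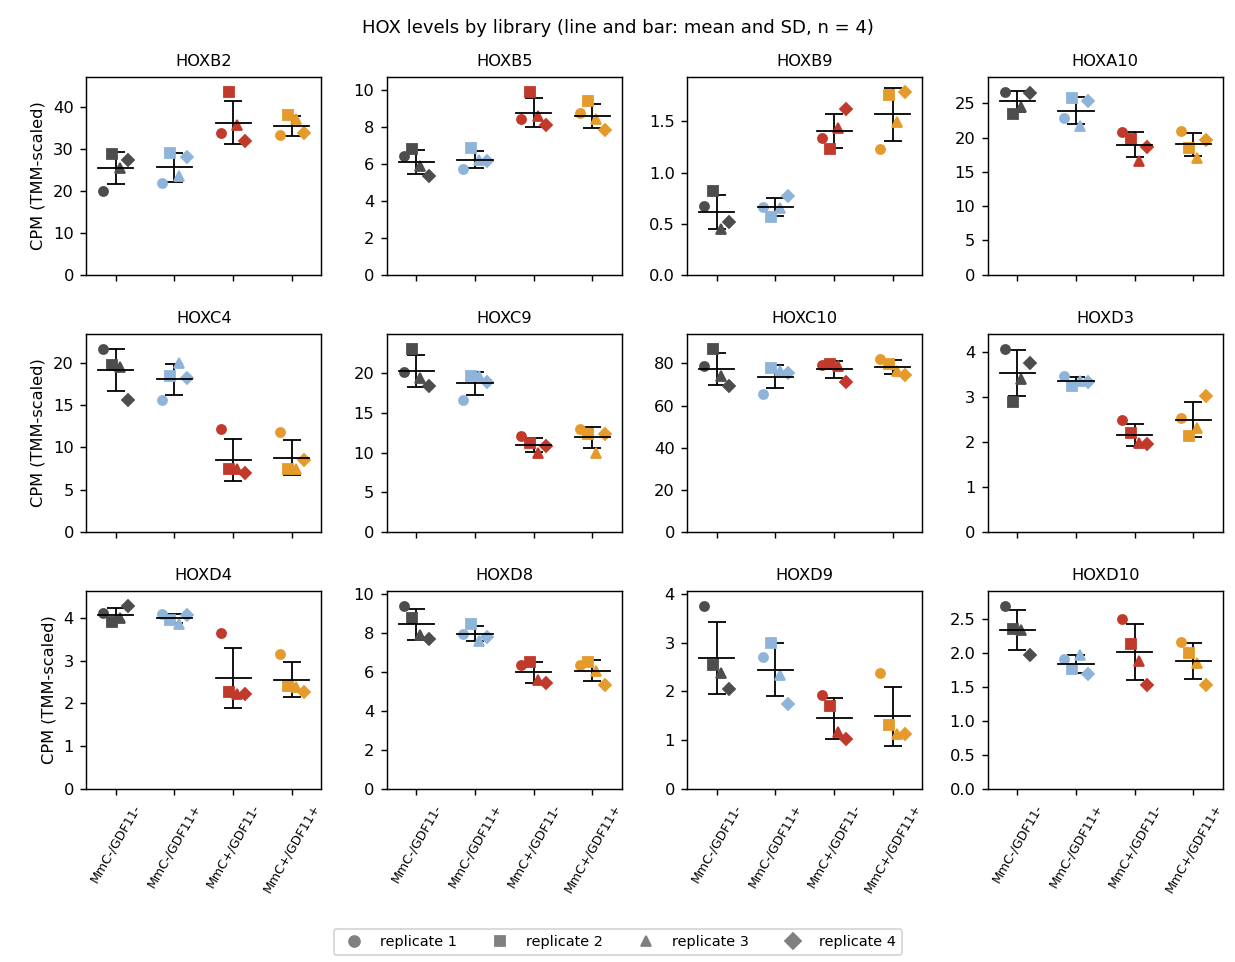
Level in CPM (y axis, from 0) of 12 HOX genes in each of the 16 libraries, by group (x axis); marker shapes are replicates 1 to 4 and the line and bar are the mean and SD (n = 4). HOXB2, HOXB5 and HOXB9 are higher in both MmC+ groups, HOXA10, HOXC4, HOXC9 and the HOXD genes 3, 4, 8 and 9 are lower, and HOXC10 lies between 65.6 and 87.0 CPM in all 4 groups.

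In HOXC, HOXC4 and HOXC9 fell while HOXC10, the most abundant gene, was not called. HOXC4, a gene of the neck and upper trunk (chr12:54016931-54056030), read 21.7, 19.8, 19.6 and 15.6 CPM in MmC-/GDF11- and 12.2, 7.47, 7.49 and 6.92 CPM in MmC+/GDF11-. With GDF11 it read 15.6, 18.5, 20.03 and 18.2 CPM in young and 11.8, 7.42, 7.46 and 8.51 CPM in senescent cells. The groups were fully separate, and replicate 1 was again the highest senescent library. The fall was 2.25-fold (log2 fold change -1.17, SE 0.18, adjusted p = 0.000109) and 2.06-fold (log2 fold change -1.04, SE 0.18, adjusted p = 0.000281), and -1.33 (adjusted p = 2.86e-07) and -1.27 (adjusted p = 4.29e-07) on the log2 scale without replicate 1 of every group.

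HOXC9, a thoracic gene (chr12:53994895-54003337), read 20.2, 23.1, 19.4 and 18.4 CPM in MmC-/GDF11- and 12.0, 11.2, 9.94 and 10.8 CPM in MmC+/GDF11-. Its values with GDF11 were 16.7, 19.7, 19.7 and 18.9 CPM in young and 12.98, 12.4, 10.0 and 12.3 CPM in senescent cells. All senescent libraries lay below all young ones. HOXC9 fell 1.84-fold (log2 fold change -0.88, SE 0.10, adjusted p = 7.97e-06) and 1.57-fold (log2 fold change -0.66, SE 0.10, adjusted p = 0.000117). HOXC-AS2, antisense to 9.78% of its exonic bases, fell as well (log2 fold change -1.19, SE 0.18, adjusted p = 6.98e-05 without GDF11).

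HOXC10 was at 77.3 ± 7.53 CPM (SD, n = 4) in MmC-/GDF11- and 77.2 ± 4.13 CPM (n = 4) in MmC+/GDF11-, with a 95% interval of the log2 fold change of -0.18 to 0.17. HOXC6 read 37.8, 41.3, 39.01 and 49.0 CPM in MmC-/GDF11+ and 55.8, 46.9, 46.3 and 50.6 CPM in MmC+/GDF11+, with 1 young library inside the senescent range. It rose 1.19-fold (log2 fold change 0.26, SE 0.10, adjusted p = 0.0415). The call was lost, with adjusted p = 0.115 without MmC-/GDF11+ replicate 1, 0.0798 without MmC-/GDF11+ replicate 2, 0.109 without MmC-/GDF11+ replicate 3, 0.0927 without MmC+/GDF11+ replicate 1 and 0.0583 without MmC+/GDF11+ replicate 4, and the log2 fold change was 0.16 (adjusted p = 0.207) without replicate 1 of every group. Without GDF11 it was 0.21 (adjusted p = 0.0865, or 0.0345 with the replicate block and 0.0462 without MmC-/GDF11+ replicate 4). HOXC8, a gene of brachial and thoracic levels, was not called (-0.24, adjusted p = 0.219), but passed with the block (adjusted p = 0.0493). Without replicate 1 of every group it fell in both comparisons, at -0.34 (adjusted p = 0.0249) and -0.32 (adjusted p = 0.0337). HOXC5 and HOXC11 were not called in either comparison.

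HOXB held all 3 genes that rose in both comparisons. HOXB9 (chr17:48621156-48626358), a gene of the rib-bearing trunk, had the largest rise of any called HOX gene, from a low level. It read 0.676, 0.818, 0.446 and 0.521 CPM in MmC-/GDF11- and 1.34, 1.24, 1.44 and 1.62 CPM in MmC+/GDF11-. With GDF11 it read 0.667, 0.563, 0.652 and 0.771 CPM in young and 1.23, 1.76, 1.49 and 1.79 CPM in senescent cells. Each senescent library was above each young library. The rise was 2.28-fold (log2 fold change 1.19, SE 0.20, adjusted p = 0.000169) and 2.36-fold (log2 fold change 1.24, SE 0.20, adjusted p = 0.000118).

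HOXB2, a hindbrain gene and the anterior-most member expressed at a high level here (chr17:48540894-48545109), read 19.98, 28.8, 25.5 and 27.3 CPM in MmC-/GDF11- and 33.6, 43.6, 35.5 and 31.9 CPM in MmC+/GDF11-. With GDF11 the readings were 21.9, 28.9, 23.4 and 28.1 CPM in young and 33.2, 38.02, 37.0 and 33.7 CPM in senescent cells. The groups did not overlap. HOXB2 rose 1.42-fold (log2 fold change 0.51, SE 0.13, adjusted p = 0.00410) and 1.39-fold (log2 fold change 0.47, SE 0.13, adjusted p = 0.00652). Paralog groups 1 to 3, to which HOXB2 gives most of the reads per length, held 8.98% to 10.8% of the HOX sum in MmC-/GDF11- libraries and 12.3% to 14.6% in MmC+/GDF11- libraries.

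HOXB5, a neural crest and lung gene (chr17:48591257-48593779), read 6.45, 6.83, 5.87 and 5.36 CPM in MmC-/GDF11- and 8.47, 9.93, 8.58 and 8.14 CPM in MmC+/GDF11-. With GDF11 it read 5.74, 6.88, 6.22 and 6.14 CPM in young and 8.76, 9.43, 8.44 and 7.84 CPM in senescent cells. Senescent libraries were again all above the young ones. It rose 1.43-fold (log2 fold change 0.52, SE 0.11, adjusted p = 0.00101) and 1.38-fold (log2 fold change 0.46, SE 0.11, adjusted p = 0.00223). HOXB3, HOXB4, HOXB6, HOXB7 and HOXB8, its neighbours, were not called, with log2 fold changes from -0.18 to 0.14 without GDF11. With GDF11, HOXB3 passed without MmC-/GDF11+ replicate 4 (adjusted p = 0.0333) and HOXB7 without MmC-/GDF11- replicate 2 (adjusted p = 0.0476).

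HOXB13, the prostate and tail gene that lies apart from the rest of its cluster (chr17:48724763-48728750), read 1.35, 1.13, 0.904 and 1.06 CPM in MmC-/GDF11- and 1.12, 0.420, 0.469 and 0.380 CPM in MmC+/GDF11-. Replicate 1 of the senescent group lay inside the young range and the other 3 lay below it. HOXB13 fell 1.85-fold (log2 fold change -0.88, SE 0.30, adjusted p = 0.0258), and the call was lost, with adjusted p = 0.0635 without MmC-/GDF11- replicate 1, 0.0504 without MmC-/GDF11- replicate 2, 0.0767 without MmC+/GDF11- replicate 2, 0.0750 without MmC+/GDF11- replicate 3 and 0.0798 without MmC+/GDF11- replicate 4. With GDF11 it was -0.71 (adjusted p = 0.0672), not called. That comparison passed with adjusted p = 0.0121 without MmC+/GDF11- replicate 1 and 0.0204 without MmC+/GDF11+ replicate 1. Without replicate 1 of every group, HOXB13 fell in both, by log2 fold changes of -1.28 (adjusted p = 4.85e-05) and -0.94 (adjusted p = 0.000500).

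In HOXA, the posterior HOXA10 fell after mitomycin C in both comparisons. HOXA5 and HOXA11 were called higher after mitomycin C only in the comparison with GDF11 present. HOXA10, needed for lumbar patterning and the uterus (chr7:27170605-27180261), read 26.7, 23.5, 24.5 and 26.5 CPM in MmC-/GDF11- and 20.8, 19.8, 16.6 and 18.7 CPM in MmC+/GDF11-. With GDF11 it read 22.9, 25.8, 21.7 and 25.4 CPM in young and 21.0, 18.4, 17.1 and 19.7 CPM in senescent cells. There was no overlap in either setting. It fell 1.33-fold (log2 fold change -0.42, SE 0.09, adjusted p = 0.00213) and 1.26-fold (log2 fold change -0.33, SE 0.09, adjusted p = 0.00927).

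HOXA5 read 0.334, 0.402, 0.268 and 0.279 CPM in MmC-/GDF11+ and 0.465, 0.600, 0.593 and 0.672 CPM in MmC+/GDF11+, without overlap. The rise was 1.82-fold (log2 fold change 0.86, SE 0.28, adjusted p = 0.0184), and adjusted p was 0.0546 without MmC-/GDF11+ replicate 3. Without GDF11, replicate 1 of MmC+/GDF11- was at 0.324 CPM while the other 3 were between 0.592 and 0.641 CPM, and the log2 fold change was 0.45 (adjusted p = 0.196), or 0.75 (adjusted p = 0.0326) without replicate 1 of every group. HOXA11, a forearm and uterus gene, read 9.76, 9.87, 8.69 and 10.9 CPM in MmC-/GDF11+ and 14.3, 11.9, 10.9 and 12.2 CPM in MmC+/GDF11+, where the lowest senescent library lay inside the young range. Its rise was 1.255-fold (log2 fold change 0.33, SE 0.11, adjusted p = 0.0210), and the call was lost, with adjusted p = 0.0705 without MmC-/GDF11+ replicate 3 and adjusted p = 0.0570 without MmC+/GDF11+ replicate 1. Without replicate 1 of every group the log2 fold change was 0.25 (adjusted p = 0.0837). HOXA11-AS, antisense to 27.2% of the exonic bases of HOXA11, rose as well with GDF11. Reads of the pair cannot be told apart if strand was not used. HOXA13, a gene of hand and foot, was not called, with log2 fold changes of 1.01 (adjusted p = 0.169) without and 1.38 (adjusted p = 0.0567) with GDF11. Replicate 1 of MmC+/GDF11+ was at 0.588 CPM and the other 3 between 0.0750 and 0.254 CPM. Without replicate 1 of every group the log2 fold changes were 0.71 (adjusted p = 0.219) and 0.55 (adjusted p = 0.289). With GDF11 the gene passed by DESeq2 (adjusted p = 0.0363), with the replicate block (0.0287), and without MmC+/GDF11- replicate 1 (0.0338), MmC+/GDF11+ replicate 3 (0.0140) or MmC+/GDF11+ replicate 4 (0.0463). HOXA3 and HOXA9 were not called.

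Members of a paralog group differed in direction or call. Among the paralogs numbered 9, HOXB9 rose, HOXC9 and HOXD9 fell, and HOXA9 was not called (0.01 without GDF11, 95% interval -0.26 to 0.28). HOXC4 and HOXD4 fell, and HOXB4 was not called (0.01, -0.24 to 0.27). HOXA10 fell and HOXC10 was not called. Of the paralogs numbered 3, HOXD3 fell and HOXA3 (0.53, -0.10 to 1.17) and HOXB3 (0.10, -0.11 to 0.31) were not called. Differences between paralogs were not tested.

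GDF11 changed no HOX gene detectably. In young cells 0 of 31 were called, as for all genes (0.0%), and the log2 fold changes of GDF11+ over GDF11- ran from -0.35 to 0.16. In senescent cells 0 of 31 were called (all genes 0.0%), with a range of -0.20 to 0.52. At an unadjusted p under 0.05, edgeR's quasi-likelihood test named 1 HOX gene and 226 of all genes (1.18%) in young cells, and 0 HOX genes and 96 of all genes (0.503%) in senescent cells. A calibrated test would name a share of about 0.05 of all genes at this level even without any effect. The smaller shares show that the unpaired test was conservative for GDF11, so a missing call does not show that a gene was unchanged. Why it was conservative was not tested. Among all genes, DESeq2 called 1 in young and 0 in senescent cells, and limma-voom called 0 in both.

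The single HOX gene at that level was HOXD10, a hindlimb gene, which read 2.70, 2.36, 2.35 and 1.98 CPM in MmC-/GDF11- and 1.92, 1.77, 1.98 and 1.70 CPM in MmC-/GDF11+. The ranges overlapped at 1.98 CPM, and the log2 fold change was -0.35 (unadjusted p = 0.0482, adjusted p = 1). In senescent cells HOXD10 had -0.10 (95% interval -0.44 to 0.25). For no HOX gene did the 4 GDF11+ libraries lie wholly above or below the 4 GDF11- libraries, which in young cells was so for 0.377% and 0.513% of all genes and in senescent cells for 0.209% and 0.293%. The 95% interval lay within a 2-fold change in either direction for 29 of 31 genes in young and 29 of 31 in senescent cells, the exceptions being HOXA13 and HOXD1. For HOXC10 it was -0.24 to 0.11 in young and -0.16 to 0.19 in senescent cells.

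**Figure D4:**
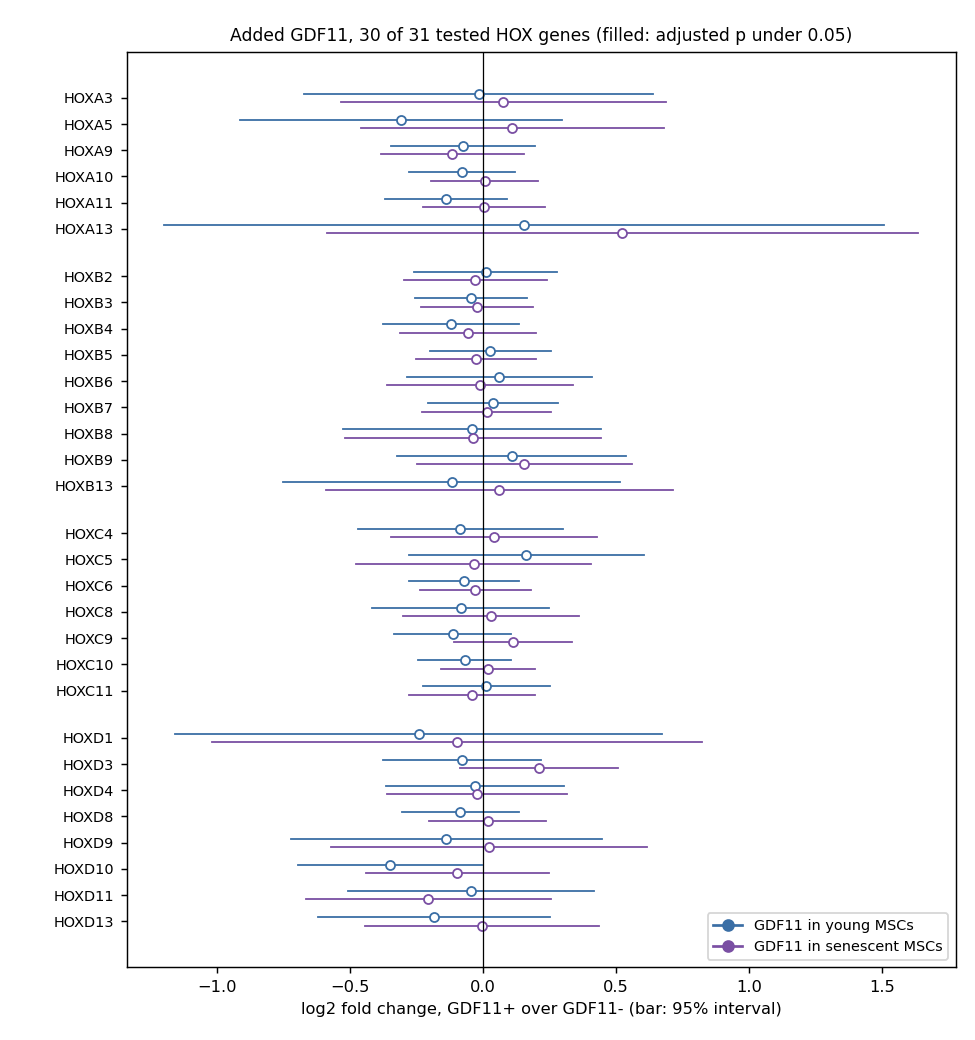
Log2 fold change of GDF11+ over GDF11- (x axis) for 30 of the 31 tested HOX genes (y axis, by cluster and paralog number) in young cells (blue) and senescent cells (purple); bars are 95% intervals and open points did not pass an adjusted p of 0.05. No point is filled, and every interval but that of HOXD10 in young cells (-0.69 to -0.00296) covers 0.

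Averaged over young and senescent cells, the GDF11 effect ran from -0.22 to 0.34 and 0 HOX genes were called (all genes 0.0%), with the 95% interval within 2-fold for 30 of 31. At an unadjusted p below 0.05 edgeR named 0 HOX genes and 126 of all genes (0.66%), and DESeq2 and limma-voom called 0 of all genes. The interaction, which asks whether mitomycin C acted differently with GDF11, also called 0 of 31 (all genes 0.0%). At an unadjusted p under 0.05 it named 0 HOX genes and 172 of all genes (0.9%), and DESeq2 and limma-voom called 0 of all genes. The edgeR shares for the averaged effect and the interaction were also below 0.05, so the test was conservative for these as well. Its largest value was 0.42 for HOXA5 (95% interval -0.413 to 1.249), so the calls of HOXA5, HOXA11 and HOXC6 in only one of the mitomycin C comparisons are not shown to differ between them.

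HOX proteins bind DNA with TALE homeodomain partners of the PBX, MEIS and PKNOX families. Without GDF11, 1 of 7 tested partners rose and 2 fell after mitomycin C, and with GDF11 1 rose and 1 fell (all genes 45.3% and 46.7% called), with median log2 fold changes of -0.32 and -0.17. MEIS2 fell from 50.7 to 75.1 CPM in MmC-/GDF11- libraries to 18.4 to 24.0 CPM in MmC+/GDF11- libraries (log2 fold change -1.46, SE 0.12, adjusted p = 3.20e-07), and MEIS1 rose by 0.78 (SE 0.18, adjusted p = 0.00262). PBX3 fell by 0.46 on the log2 scale (adjusted p = 0.00849). With GDF11, MEIS2 (-1.40) fell and MEIS1 (0.81) rose again, and PBX3 was at -0.31 (adjusted p = 0.0639). MEIS3, PKNOX1 and PKNOX2 were not called.

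Of 24 tested Polycomb genes, which silence HOX clusters, 3 rose and 6 fell without GDF11, and 3 rose and 7 fell with it (all genes 45.3% and 46.7% called). The median log2 fold changes were -0.11 and -0.15, against -0.01 over all genes in both. CBX7, a reader of the H3K27 methyl mark, rose by 1.15 and 1.13 on the log2 scale (adjusted p = 7.61e-07 and 1.01e-06). JARID2, a subunit of the methyltransferase complex, rose by 0.43 without GDF11. PHF19, a partner of the methyltransferase complex, fell by 1.38 and 1.34 (adjusted p = 7.54e-05 and 9.12e-05), and PHC1, RBBP7 and RNF2 fell by 0.68, 0.45 and 0.45. Of the exonic 31-base words of PHC1, 82.5% occur more than once on the primary chromosomes. Its count therefore depends on how multi-mapping reads were treated, which is not given. Of 15 Trithorax activators and H3K27 demethylases, 6 rose and 3 fell without GDF11 and 7 rose and 4 fell with it (all genes 45.3% and 46.7% called), with medians of 0.21 and 0.24. The remodeler CHD7 rose by 2.01 and 1.16, but near the floor. Its means were 0.0752 CPM in MmC-/GDF11- and 0.311 CPM in MmC+/GDF11-, and 0.129 and 0.294 CPM in the matching groups with GDF11. The demethylase KDM6B rose by 1.01 and 1.09, from a mean of 15.6 CPM in MmC-/GDF11- to 31.5 CPM in MmC+/GDF11-. The methyltransferase subunits WDR5 and ASH2L fell by 0.64 and 0.43 without GDF11.

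Noncoding RNAs of the clusters followed no single direction. Of 13 tested, 1 rose and 4 fell without GDF11 and 2 rose and 4 fell with it (all genes 45.3% and 46.7% called), with median log2 fold changes of -0.15 and -0.07. HOXC-AS2, HOXC-AS3, HOXD-AS2 and HOXA-AS2 fell in both, by log2 changes of -1.19, -0.88, -1.09 and -0.65 without GDF11. HOXB-AS3 rose without GDF11 (0.83, adjusted p = 0.0157), and HOXB-AS1 (0.54) and HOXA11-AS (0.41) rose with it. HOXB-AS1 is antisense to 3.54% of the exonic bases of HOXB2, and HOXB-AS3 to 3.93% of those of HOXB5. HOTAIR, transcribed from the HOXC cluster, was not called (0.17, adjusted p = 0.285).

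**Figure D5:**
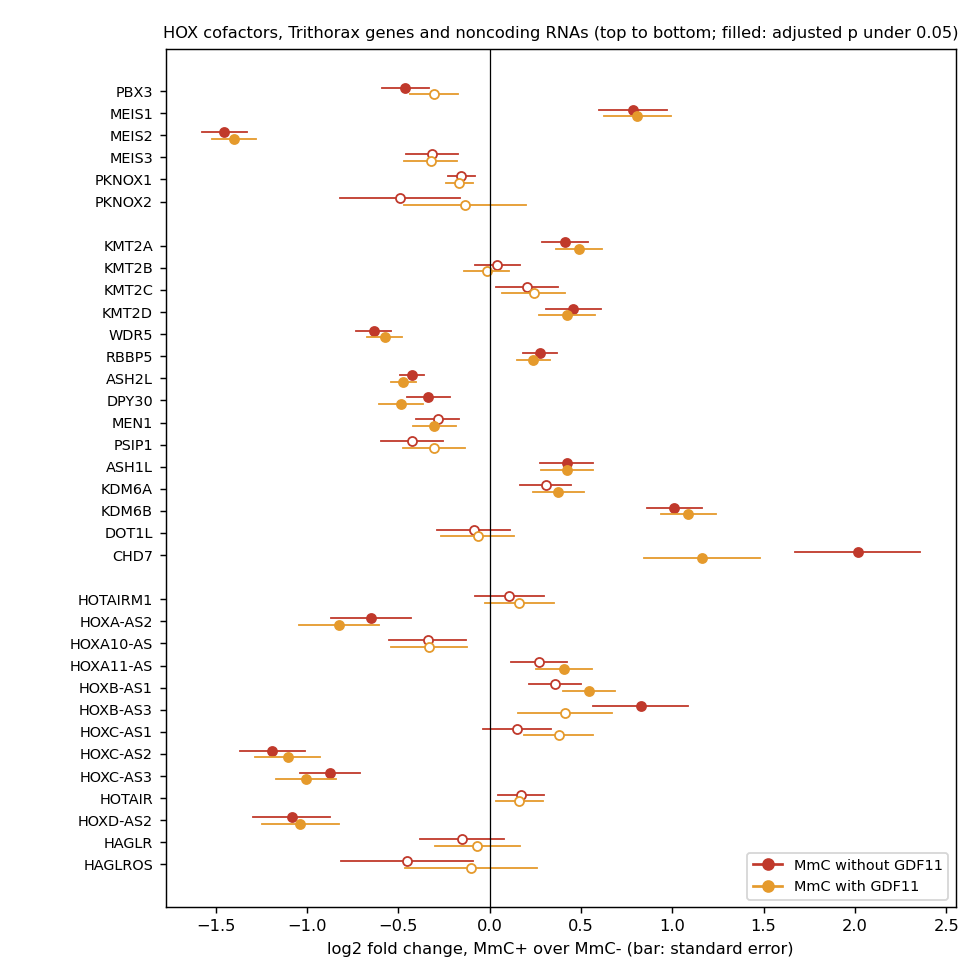
Log2 fold change of MmC+ over MmC- (x axis) for HOX cofactors, Trithorax genes and H3K27 demethylases, and noncoding RNAs of the HOX clusters (y axis, top to bottom), without GDF11 in red and with GDF11 in orange; bars are standard errors and filled points passed an adjusted p of 0.05. MEIS2 (-1.46 and -1.40) and CHD7 (2.01 and 1.16) lie farthest from 0, and CHD7 averaged at most 0.311 CPM in a group.

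Retinoic acid is a classical inducer of HOX genes. Of 14 tested retinoid genes, 2 rose and 5 fell without GDF11 and 2 rose and 6 fell with it (all genes 45.3% and 46.7% called), with median log2 fold changes of -0.22 and -0.18. The synthesis enzyme ALDH1A2 rose by 1.59 and the degrading enzyme CYP26B1 by 2.48 (adjusted p = 0.000148 and 5.61e-07). Another degrading enzyme, CYP26C1, fell by 1.38. The receptor RARG fell too (adjusted p = 8.62e-06), by 1.0 on the log2 scale. Of 33 other tested positional homeobox and T-box genes, 5 rose and 13 fell without GDF11 (all genes 22.9% and 22.4%) and 6 rose and 11 fell with it (all genes 23.4% and 23.3%), with medians of -0.21 and -0.10. DLX3 (2.29), TBX2 (1.01) and EMX2 (0.92) rose most, and SIX2 (-1.20), NKX3-2 (-0.996) and OTX1 (-0.93) fell most. Of the CDX and EVX genes, relatives that lie upstream of or beside HOX clusters in development, only CDX1 was tested and it was not called. No gene of these lists was called for GDF11.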

How the data were processed

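Poly(A) RNA of 16 cultures was sequenced from directional libraries. The authors mapped the reads to hg38 with HISAT2 2.2.1 and counted them per GENCODE gene with featureCounts 2.0.1 (versions from the submitters' processing notes), and deposited raw counts for 60649 genes. Strand, pair and multi-mapping settings are not given in the sources used here. Genes passing edgeR's filter on low counts (minimum count 10) were tested, 19103 in all. A model over the 4 groups was fitted with edgeR 4.0.16 (R 4.3.3), TMM scaling and the quasi-likelihood test, and p-values were adjusted by the Benjamini-Hochberg method over all tested genes. Per-length levels and exonic overlaps used GENCODE v44, a later release than the paper names for the counting, and 142 identifiers had no match there. The fit was tested on simulated counts. Members and lists were chosen with earlier results of these data known; HOX genes were named, and from the other lists up to 3 called genes with the largest rise and 3 with the largest fall. A few genes of these lists enter the counts and are otherwise not reported here. Genes with at least 90% of their sequence on alternate contigs were left out of the lists (PBX2, PHF1, PCGF2, RING1, RXRB and MYH11). Alternatives used DESeq2 1.42.0, limma 3.58.1, other scalings and filters, a replicate block and left-out libraries. Same-numbered libraries deviated from their group means with a positive Pearson r across genes in every comparison. The lowest r over the 4 pairs was 0.113 in MmC without GDF11 and 0.0293 in MmC with GDF11. It was 0.448 for GDF11 in senescent cells and 0.0982 for GDF11 in young cells. The sources do not say that a number is shared by cultures of different groups. The main test therefore held no term for replicate number and was not paired in any comparison. Replicates of a group differed by far more than counting noise. Depth, 71275337 to 144204979 counts per library, allowed genes below 1 CPM to be measured.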

Additional observations from a re-analysis of the deposited data

Results flagged for a closer look

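Across 31 tested HOX genes in 4 groups, 12 of 124 sets of 4 libraries had a library far from the other 3, by a gap that passes Dixon's 95% critical value. Chance gives about 1 in 20 such sets. Replicate 1 was the library apart in 8 of the 12, all after mitomycin C. In MmC+/GDF11- replicate 1, HOXA13 (0.355 CPM), HOXB13 (1.12 CPM), HOXC4 (12.2 CPM) and HOXD4 (3.65 CPM) were higher than in the other 3 libraries and HOXA5 (0.324 CPM) was lower. HOXC4 was at 6.92 to 7.49 CPM and HOXB13 at 0.380 to 0.469 CPM in those 3. In MmC+/GDF11+ replicate 1, HOXB13 (0.943 CPM), HOXD4 (3.16 CPM) and HOXD9 (2.38 CPM) were higher. In HOXA5, HOXB13, HOXC4, HOXD4 and HOXD9 the value of replicate 1 was nearer to the young libraries than the other 3 were. HOXA13 went the other way. Its replicate 1 was farther from the young libraries (0.0621 to 0.143 CPM in MmC-/GDF11-) than the other 3 were (0.115 to 0.123 CPM in MmC+/GDF11-). The remaining 4 were HOXB7 in MmC-/GDF11- replicate 2 (35.8 CPM, higher), HOXC6 in MmC-/GDF11- replicate 3 (39.4 CPM, lower), HOXC10 in MmC+/GDF11- replicate 4 (71.0 CPM, lower) and HOXD13 in MmC-/GDF11+ replicate 2 (1.01 CPM, higher). The cause was not tested.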

How the results depend on the processing

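HOXA10, HOXB2, HOXB5, HOXB9, HOXC4, HOXC9, HOXD4 and HOXD8 kept their direction and call under all 25 alternatives in both mitomycin C comparisons. The number of HOX genes called ranged from 10 to 15 without GDF11 and from 10 to 16 with it over the 9 alternatives that leave out no single library, from 9 to 12 and from 9 to 15 with single libraries left out. It was 14 in both without replicate 1 of every group. The replicate block gave 15 HOX genes (4 higher, 11 lower) without GDF11, where it added HOXC6, HOXC8 and HOXD1. With GDF11 it gave 16 (7 higher, 9 lower), where it added HOXA13, HOXB13 and HOXD1. The block called none for GDF11. DESeq2 called 12 and 14 HOX genes and limma-voom 12 and 14. With RLE or upper-quartile scaling HOXD13 without GDF11 (adjusted p = 0.0557 and 0.0567) and HOXD9 with GDF11 (0.0512 and 0.0584) lost their call. Without the filter on low counts HOXD13 without GDF11 (adjusted p = 0.137) and HOXA11, HOXC6 and HOXD3 with GDF11 (0.0674, 0.101 and 0.0889) were lost. With at least 10 counts in every library HOXD13 without and HOXD9 with GDF11 were lost (0.0537 and 0.0552), and HOXC6 without GDF11 was gained. With only the compared groups in the fit HOXB13 and HOXD13 without GDF11 (0.0609 and 0.0882) and HOXC6 and HOXD9 with it (0.0671 and 0.0517) were lost, and HOXB13 with GDF11 was gained, as it was by limma-voom. Over all genes, GDF11 in young cells gave 1 call by DESeq2 and 0 to 1 with single libraries left out, as did the averaged effect (0 to 1), in each case 1 without MmC-/GDF11+ replicate 2. HOXA13 under GDF11 in senescent cells ranged from -0.17 to 1.12 with single libraries left out, and turned negative without MmC+/GDF11+ replicate 1. Summed untreated levels per length were 19.1, 54.8 and 102 for HOXA, HOXB and HOXC with the length of the longest transcript, and 4.66, 33.4, 22.3 and 9.58 for HOXA, HOXB, HOXC and HOXD without genes of same-strand overlap. The causes were not tested. HOXA13, with at most 43 reads in a library, had wide intervals.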
